A study of Drosophila melanogaster with 8 samples.

Results

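The genes described here are 42 protein-coding genes of Drosophila melanogaster that carry only a provisional symbol, CG followed by digits, and whose counts lay almost wholly in libraries of salivary glands. They were selected on measured values. A gene had to hold 20 or more estimated counts over the female and male gland libraries together, and its CPM (estimated counts scaled by the library total) in those libraries had to make up 80% or more of its CPM summed over all 8 libraries. Of 14292 genes with a deposited transcript, 6080 had such a symbol, 189 of these had 20 or more gland counts, and 42 also met the share. Another 54 genes with other symbols met both limits. Since the gland share chose the 42 genes, their restriction to glands is given as a description, without a test.

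The study holds 1 library from each of 8 groups: salivary glands of females and males, eyes of females and males, heads of females and males, ovaries, and testes. All flies were of the wild-type strain Oregon R, with no treatment or introduced allele, and were taken 5 to 7 days after hatching from stocks held at 25 °C. Total RNA was copied into cDNA, the ends of transcripts of the gene qtc (quick-to-court) were amplified with gene-specific primers, and the cDNA was sequenced as long reads. The stage and isolation of the salivary glands are not given in the sources used here. With 1 library per group, no value below has a replicate error, and intervals cover counting error only.

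A CG symbol is the identifier that the genome annotation gives to a predicted fly gene until it is named for a phenotype or product. The annotations used here give no product for these 42 genes, so none is stated. The salivary gland is a secretory organ. In the larva its cells carry polytene chromosomes and make the glue proteins of the Sgs genes, which fix the pupa to a surface. Later in development the same cells turn to other secreted products such as those of the Eig71E genes. The ng (new glue) genes are counted here among the glue and prepupal gland genes.

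The libraries held 88471 to 152222 estimated counts, and 3 counts, the limit that a count of 0 allows, corresponded to 19.8 CPM in female glands and 33.9 CPM in testes, the shallowest library. The gland labels were checked against marker lists. The list of 22 glue and prepupal gland genes took 2.89% of counts in female glands and 2.58% in male glands, and at most 0.0938% in any other library (male eyes). Of these 22 genes, 11 had 20 or more gland counts, and all 11 met the same 2 limits as the unnamed genes. A list of 7 gland regulators and modifying enzymes did not set the glands apart. It took 0.0366% of counts in female glands and 0.0406% in male glands, against 0.0351% in ovaries. Only 1 of its 7 genes, sage, met both limits, and fkh had 49.2% of its summed CPM in glands. Genes of the larval fat body, which makes the storage proteins of the Lsp genes, took 17.9% of counts in female glands and 17.3% in male glands, and 1.14% in male eyes, the highest of the other libraries. All 6 genes of that list also met both limits, and their part in the values of the unnamed genes was not tested. In bulk tissue, fewer cells of a type and less RNA per cell cannot be told apart.

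Together the 42 genes took 4.24% of counts in female glands and 4.04% in male glands, more than the glue list in either library. In the other 6 libraries they took between 0.0251% (ovaries) and 0.0858% (female eyes). Their share of summed CPM in glands had a median of 96.1%, was 95% or more for 25 genes and under 90% for 8. Gland counts ran from 20 to 4280 with a median of 94.5, so 15 genes with under 50 counts are known only roughly. Close to the limit, CG18179 (82%), CG9449 (82.4%) and CG3999 (83.9%) lay just inside, and CG31075 (79.2%), CG8944 (77.5%) and CG5958 (76.9%) lay just outside.

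**Figure D1:**
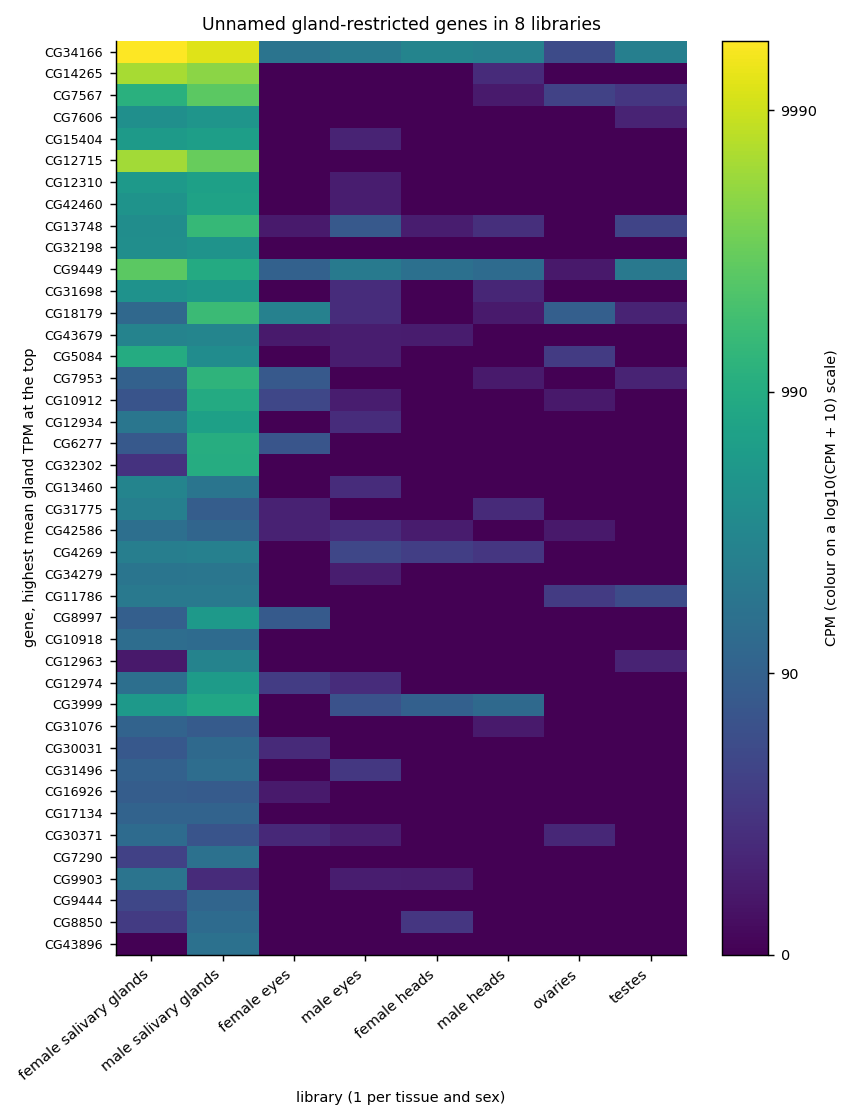
CPM of the 42 genes (rows, highest mean gland TPM at the top) in the 8 libraries (columns, 1 library each), with colour on a log10(CPM + 10) scale. The gland columns are bright in nearly every row, CG43896 is at 0 in female glands, and scattered low values outside the glands include CG34166 and CG9449 in all 6 other libraries.

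Levels were very unequal among the 42 genes. On the TPM scale, which corrects for transcript length, mean gland levels ran from 13.2 to 35972 with a median of 369, and the 3 highest genes held 69.3% of the summed TPM of all 42. CG34166, on chromosome arm 2L at 14743193 to 14743879, had 2674.4 counts in female glands and 1605.7 in male glands, or 42074 TPM and 29870 TPM. This placed it above every gene of the glue list in these libraries, of which Sgs7 was highest with 25843 TPM in female glands and 21457 TPM in male glands. CG14265, on the X at 3236130 to 3236686, had 1006.7 counts in female glands and 641.0 in male glands, or 15173 TPM and 11253 TPM. Its level lay below that of Sgs5, with 20439 TPM in female glands and 18927 TPM in male glands, and above that of Sgs8, with 10692 and 9935 TPM. CG7567, on 3R at 29587237 to 29588104, came next by mean TPM, with 1559 TPM in female glands and 3667 TPM in male glands.

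CG12715, on the X at 13052847 to 13055328, had more counts than CG7567, 939.6 in female glands and 410.6 in male glands, but its longer transcripts put it at 2443 TPM and 1243 TPM. It was at 0 in all 6 other libraries. Its exons overlap those of an antisense RNA gene, asRNA:CR44840, which had 0 gland counts in the authors' assignment. The next genes by mean TPM, CG7606, CG15404, CG12310, CG42460, CG13748, CG32198, CG9449 and CG31698, had mean levels of 2266 down to 1108 TPM. CG32198 was the second of these 12 genes with no count outside the glands, and had 59.0 counts in female glands and 60.3 in male glands.

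**Figure D2:**
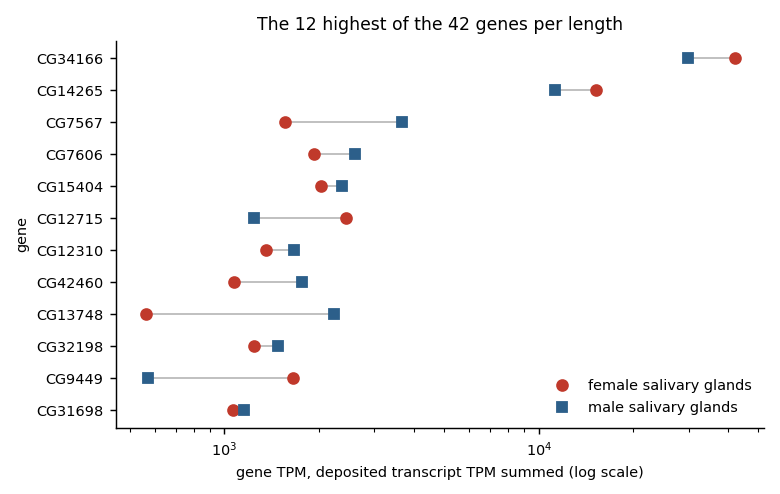
Gene TPM (deposited transcript TPM summed per gene, log axis) of the 12 genes with the highest mean gland level, in female salivary glands (circles) and male salivary glands (squares), 1 library each. CG34166 and CG14265 stand above the other genes in both libraries, and CG7567, CG12715, CG13748 and CG9449 show the widest gaps between the sexes.

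Outside the glands, 8 of the 42 genes were at 0 in all 6 libraries and 21 had under 3 counts in all 6 together. CG34166 had the most counts there, 23.8 in female eyes, 26.4 in male eyes, 38.2 in female heads, 34.7 in male heads, 6.9 in ovaries and 21.2 in testes. These counts were low against its gland counts and were spread over all the tissues. CG9449, on 3L at 19492053 to 19497723, came next with 13.2, 25.3, 20, 17.2, 1.0 and 17.3 counts in the same libraries. CG18179 differed from both in being uneven: it had 37.0 counts in female eyes and 12.9 in ovaries, against 2.0 in male eyes, 0.0 in female heads, 1.0 in male heads and 1.0 in testes. A count above 0 was seen for 21 of the 42 genes in male eyes, the most of any library outside glands, and for 15 in female eyes. At 3 or more counts there were 8 genes in female eyes and 6 in male eyes. The male eye library also held 117.8 counts of the glue list, against 5.0 in female eyes. It held 1426.5 counts of the larval fat body list, against 37.3 in female eyes. The part of such shared transcripts in the low values outside glands was not tested.

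A fit over the 6 libraries of glands, eyes and heads (edgeR, with terms for tissue and sex) gave the size of the contrast for the 31 genes with enough counts to enter it. Of these 31 genes, 17 had no count in either head library, and their fitted values depend on the prior count. The 14 with a count ran from 3.38 (CG3999, SE 0.985) to 10.12 (CG14265, SE 1.27) on the log2 scale for glands minus heads. Against 3 counts over both head libraries, the other 17 were at least 2.81 to 8.73 higher in glands on that scale. With those genes at their bound the median of the 31 was 5.24, beside a fitted median of 0.14 over all 1316 genes. For glands minus eyes, the 22 genes with an eye count ran from 2.23 (CG18179, SE 2.21) to 7.39 (CG12310, SE 1.12). The median with the other 9 at their bound was 5.04, beside −0.08 over all genes. The upper ends rest on few counts, 2.0 in male heads for CG14265 and 1.0 in male eyes for CG12310. Only genes at 0 were set to a bound, and genes with a count under 3 kept their fitted value. All 31 had fitted values 2-fold or more higher in each contrast, where 35.4% of all genes fitted were 2-fold or more higher than in heads and 33.8% than in eyes. The rule used these contrasts, so nothing is read from those counts.

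The 42 genes were short. The lead transcript, the one with the most gland counts, encoded a median of 228 codons, against 346 codons for the other 782 protein-coding genes with 20 or more gland counts. It encoded 150 codons or fewer in 14 of the 42 genes (33.3%), against 11.8% of the others, and had 1 or 2 exons in 29 (69%), against 30.3%. The smallest was CG43679 with 63 codons, followed by CG7606 with 66, CG42460 with 79 and CG34166 with 82. The largest was CG43896 with 1324 codons in 10 exons. The rule did not use length. The genes lay on every large chromosome arm, with 9 on 2L, 10 on 2R, 10 on 3L, 9 on 3R and 4 on the X, where 17.9%, 22.9%, 17.4%, 24.2% and 16.3% of the other genes lay.

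Several of the genes were neighbours of each other or of glue genes. Of the 42, 12 (28.6%) lay within 10 kb of another of the 42 or of a gene of the glue list, against 18 of 778 other genes with 20 or more gland counts (2.31%), a comparison set without the glue list. CG14265 lies 3339 bases from ng2, 4804 from ng3, 5725 from ng1 and 7267 from ng4 on the X. It overlaps the span of dnc, a gene on the opposite strand with 1.0 count in female glands and 0.0 in male glands. Of these new glue genes, ng2 had 329.7 counts in female glands and 495.1 in male glands, ng3 had 187.7 and 137.5, and ng1 had 212.4 and 77.9, while ng4 was at 0 in both. CG7606 lies 423 bases from Sgs5, the most counted gene of the glue list, and 1478 from Sgs5bis, on the same strand of 3R. CG7606 had 61.5 counts in female glands and 64.2 in male glands, far below Sgs5 with 1704.9 and 1355.7.

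The other groups joined unnamed genes only. On 2L, CG42586 lies 1352 bases from CG34166 and CG31775 lies 5423 bases from it on the same arm, both on the opposite strand. The 3 lead transcripts are each 613 bases long with 2 exons, of 82 codons in CG34166 and 89 in CG42586 and CG31775. CG42586 had 21.7 counts in female glands and 14 in male glands, and CG31775 had 37.2 and 10.8, so both were more than 100 times below CG34166 in male glands. If these genes are near-identical copies, reads could have been split between them. That was not tested, and the counts of CG42586 and CG31775 are uncertain.

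CG15404 and CG31698 start 131 bases apart on opposite strands of 2L. Their counts were close, with 87.8 and 67.7 in female glands and 87.2 and 67.0 in male glands. On 3L, CG12310 and CG43679 follow each other on the same strand with 49 bases between them, and CG13460 lies 9603 bases from CG43679. CG12310 had 86.1 counts in female glands and 91.0 in male glands, and CG43679 had 42 and 38.2. CG7953 and CG8997 lie 2599 bases apart on opposite strands of 2L and, unlike the other neighbours, were both low in female glands. Between them lies CG7916, an unnamed gene under the count limit, with 1.0 count in female glands and 16.1 in male glands. CG7290 on 3L likewise has 2 unnamed neighbours under the limit, CG7298 with 0.0 counts in female glands and 15 in male glands and CG7017 with 1.0 and 17, all without a count elsewhere.

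**Figure D3:**
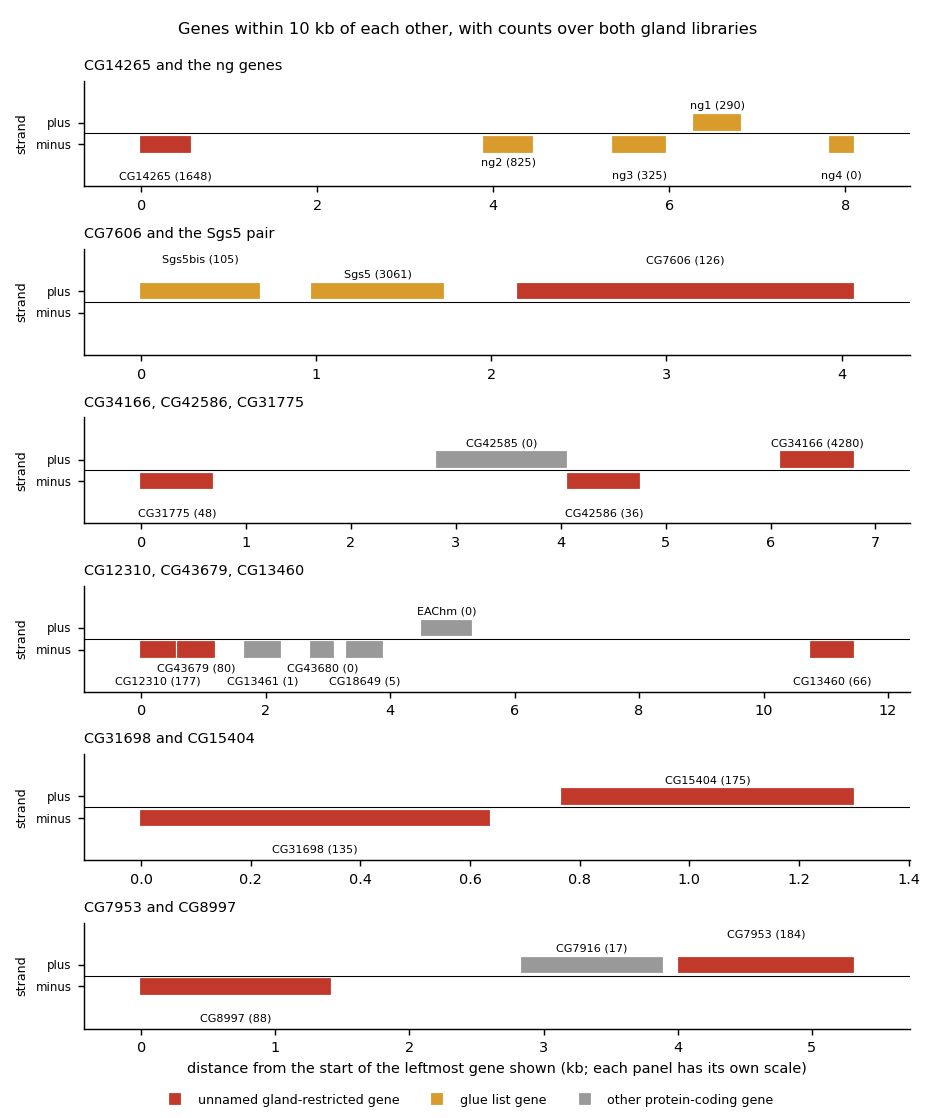
Positions and strands of neighbouring genes in 6 places where unnamed gland-restricted genes (red) lie within 10 kb of each other or of glue list genes (yellow), with the other protein-coding genes between them in grey. Numbers in brackets are counts summed over both gland libraries, and each panel has its own scale in kb from its leftmost gene. CG7606 lies beside Sgs5, and CG15404 and CG31698 lie back to back.

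The rule used the sum of both gland libraries, so a gene could meet it through the library where it was higher. With female glands alone 18 of the 42 genes would have met it, with male glands alone 26, and with either alone 15. The ratios between the sexes are therefore given as a description. Over the 42 genes, the log2 ratio of female to male gland CPM had a median of −0.24 and a middle range of −2.02 to 0.32. The same median was −0.11 over all 831 genes with 20 or more gland counts. Of the 42 genes, 6 (14.3%) were 2-fold or more higher in female glands, beside 10.6% of all 831 genes. Another 15 (35.7%) were 2-fold or more lower in female glands, beside 14.9% of all 831, and 21 lay within 2-fold. Of these 15 genes, 13 would have met the rule with male glands alone and 2 with female glands alone. The 831 genes faced no limit on gland share. The part of this choice of genes in the larger share of lower genes was not tested. Among the 15 genes that met the rule with either library alone, 2 were higher and 2 lower in female glands. The 54 named gland-restricted genes split into 6 higher (11.1%) and 10 lower (18.5%), with a median of 0.02. The exact 95% binomial interval of the ratio excluded 1 for 23 of the 42 genes, 7 higher and 16 lower in female glands, beside 15.5% higher and 21.7% lower of all 831 genes. It treats reads as independent, which PCR copies are not, and with 1 library per sex, sex and library cannot be told apart.

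**Figure D4:**
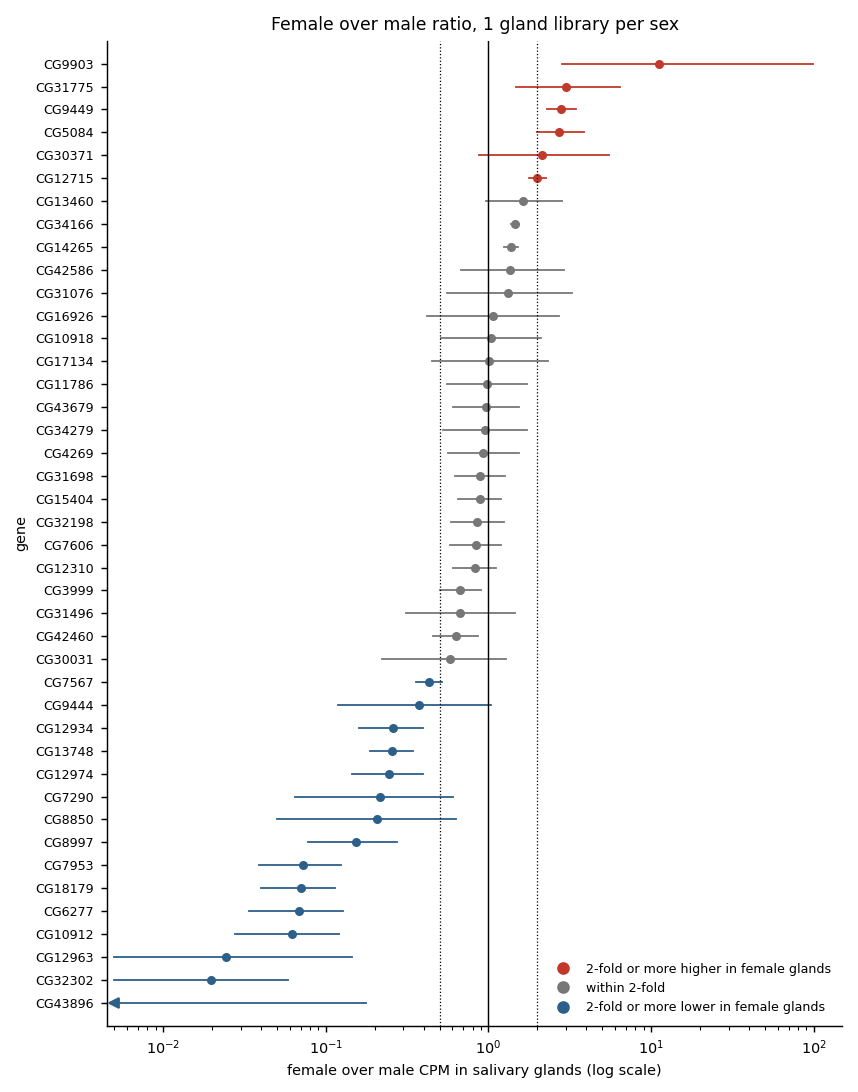
Female over male CPM in salivary glands for each of the 42 genes (1 library per sex, log axis) with the exact 95% binomial counting interval; dotted lines mark 2-fold. Red genes are 2-fold or more higher in female glands (6), blue ones 2-fold or more lower (15) and grey ones within 2-fold (21); the arrow marks CG43896, at 0 in female glands, and intervals that pass the left edge are drawn to it.

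The genes lower in female glands included the widest ratios of the set. CG32302, on 3L at 2268825 to 2269903, had 3.0 counts in female glands and 134.1 in male glands, a level 51.1-fold lower in female glands (interval 17.1 to 251). It had no count in any other library. CG12963, on 2R at 15555446 to 15562436, had 1.0 count in female glands and 36.1 in male glands, 41.2-fold lower with an interval of 6.93 to 1670 that shows how little a count of 1 fixes. CG43896, on 3L at 11976111 to 11983764, had no count in female glands and 20 in male glands, and was at least 7.63-fold lower in female glands against a floor of 3 counts in that library; the counting interval of its ratio reached up to 0.177. It was also at 0 in the 6 other libraries.

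Another 4 genes were lower in female glands by similar amounts. CG10912, on 2R at 18056064 to 18057065, had 9.0 counts in female glands and 127.4 in male glands (16.2-fold lower, 8.23 to 36.1). CG6277, on 3R at 27022071 to 27023217, had 10.8 and 139.1 (14.7-fold, 7.83 to 29.6). CG18179, a gene of 1 exon on 3L at 9639271 to 9640140, had 17.2 and 213.4 (14.1-fold, 8.73 to 25). CG7953, on 2L at 13847925 to 13849223, had 14 and 170.0 (13.9-fold, 8.05 to 25.9), and its neighbour CG8997 had 13.1 and 74.7 (6.5-fold, 3.63 to 13). Smaller ratios were seen for CG13748, with 57.3 counts in female glands and 195.9 in male glands (3.91-fold lower, 2.91 to 5.38), and for CG7567, with 175.1 and 353.8 (2.31-fold, 1.92 to 2.79). The remaining 5 genes, CG12974, CG12934, CG7290, CG8850 and CG9444, were 2.67-fold to 4.86-fold lower, and the interval of CG9444 included 1. Together the 15 lower genes took 0.241% of counts in female glands and 1.27% in male glands.

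Among the genes higher in female glands, CG9903, on the X at 16539153 to 16540852, had the widest ratio, with 25.6 counts in female glands and 2.0 in male glands (11.2-fold, 2.85 to 98.9). CG31775 had 37.2 and 10.8 (3-fold, 1.47 to 6.4), with the reservation on its copies given above. CG9449 had 401.9 and 126.4 (2.78-fold, 2.28 to 3.44) and CG5084, on 2R at 18018665 to 18020211, had 151.1 and 48.5 (2.73-fold, 1.98 to 3.89). CG12715 stood exactly at the 2-fold line (interval 1.78 to 2.25), and CG30371, with 19.0 and 7.9 counts, had an interval that included 1. On the TPM scale 4 genes in place of 6 were 2-fold or more higher. CG34166 and CG14265, within 2-fold, were 1.46-fold (1.37 to 1.55) and 1.37-fold (1.24 to 1.52) higher in female glands. The 11 glue list genes with 20 or more gland counts spanned a narrower range, from Sgs1 with 282.5 counts in female glands and 48.1 in male glands (5.14-fold higher in female glands) to Sgs5bis with 36.9 and 68.3 (2.12-fold lower).

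Gene length differed between these sets. The 21 genes within 2-fold had a median of 127 codons, and 12 of them had 150 or fewer. The 15 genes lower in female glands had a median of 297 codons and the 6 higher ones 395, with 1 gene of 150 codons or fewer in each set. Among the other genes with 20 or more gland counts, the medians were 331 codons within 2-fold, 376 for the lower and 396 for the higher genes. Of the 12 genes with a near neighbour, CG31775 was higher and CG7953 and CG8997 were lower in female glands, and the other 9 lay within 2-fold.

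The muscle list of 7 genes took 55.9 counts (0.0369%) in female glands and 543.5 (0.41%) in male glands. These counts came mostly from Act57B, an actin of muscle, with 34.4 and 440.5 counts, and wupA, which encodes troponin I, with 8.3 and 94.0, while Mhc, the muscle myosin heavy chain, was at 0 in both. Without Act57B and wupA the list had 13.2 counts in female glands and 9.0 in male glands, with Mlc2, a myosin light chain, at 9.0 and 5.0 and up, which encodes troponin T, at 3.2 and 0.0. The gut list of digestive enzymes had 62.3 counts in female glands and 62.6 in male glands. Jon65Aiii, a protease, accounted for 55.3 and 46.0 of these, and Jon99Fii, Amy-p and Amy-d were at 0. The rest of the list had 7.0 counts in female glands and 16.6 in male glands, with the trypsin gene alphaTry at 2.2 and 9.2 (ratio interval 0.0204 to 0.939) and the maltase gene Mal-A1 at 1.0 and 4.0. Of the trypsin genes near CG30031 on 2R, looked up after the values were seen, the most counted were lower in female glands, with epsilonTry at 47.9 counts in female glands and 277.0 in male glands and deltaTry at 21.9 and 76.0. The gene epsilonTry was not restricted to glands, with 311.4 counts in ovaries and 71.0 in female eyes. In contrast, betaTry was about even, with 3.8 counts in female glands and 3.4 in male glands. CG30031 itself had 10.3 and 15.5 counts, and near-identical trypsin copies make all these counts uncertain. The hemocyte list had 0.0 counts in female glands and 2.4 in male glands, and the testis list 0.0 and 1.9. The part of muscle or gut transcripts in the sex ratios of the unnamed genes was not tested.

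The 15 genes lower in female glands had 77.0 counts in female eyes and 15.9 in male eyes. In female eyes, 6 of the 15 had 3 or more counts, as did 1 of the 6 higher genes and 1 of the 21 within 2-fold. No such share was computed over all genes, so nothing is read from these counts of genes. In heads the 15 lower genes had 4.1 counts in females and 5.3 in males. The female eye library took 0.471% of its counts from the gut list and 8.24% from the ovary list, against 0.000796% and 0.021% in male eyes. The ovary list counts were nearly all from the chorion gene Cp15. The part of gut or ovary transcripts in the eye counts of the lower genes was not tested. Of the 15 lower genes, 8 had no count in female eyes, among them CG32302, CG12963 and CG43896. CG18179, CG8997, CG7953, CG6277 and CG10912 had 37.0, 10.4, 10.0, 9.0 and 5.6 counts there.

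**Figure D5:**
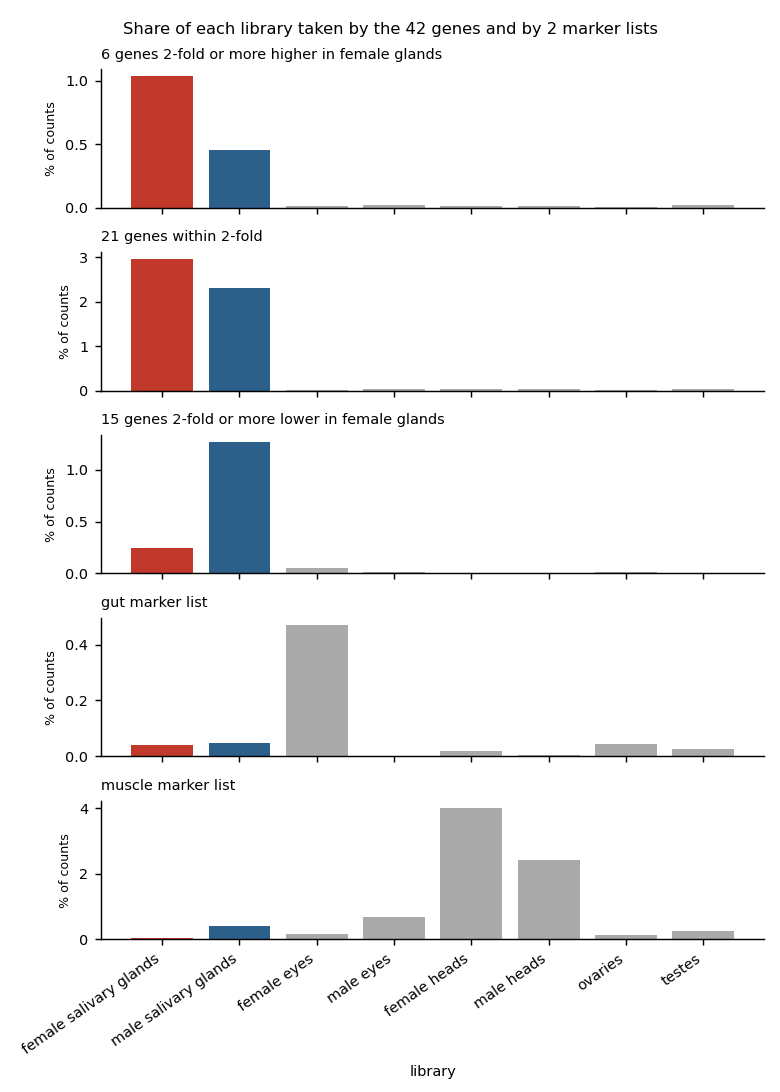
Percent of each library's counts taken by the 6 genes 2-fold or more higher in female glands, the 21 within 2-fold and the 15 lower, and by the gut and muscle marker lists, in the 8 libraries (1 each). The lower genes take 0.241% of female gland and 1.27% of male gland counts, and the muscle list 0.0369% and 0.41%. The muscle list without Act57B and wupA had 13.2 counts in female glands and 9.0 in male glands. The gut list peaks in female eyes at 0.471%. The other marker lists are not drawn, and each panel has its own axis, starting at 0.

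Only the sex term fitted jointly over eyes, heads and glands allows a test, with 2 residual degrees of freedom. No gene of 1316 was called at an adjusted p of 0.05 (0%; edgeR quasi-likelihood test, Benjamini-Hochberg), 34 had an unadjusted p under 0.05, and the smallest adjusted p was 0.142. DESeq2 called 1 gene, and none of the 42. Of the 31 unnamed genes in the fit, none was called, and 1 had an unadjusted p under 0.05. This was CG13748, with a log2 female minus male difference of −2.06 (SE 0.687, adjusted p 0.963 by edgeR). It is 1 of the 15 genes lower in female glands, of which 2 would have met the rule with female glands alone. The choice of these genes depended on the gland values, so nothing is read from the unadjusted p of CG13748. Its counts were 1.0 in female eyes and 8.9 in male eyes, and in heads 1.1 in females and 2.3 in males, both under 3 counts. Of the 31, 10 had a positive and 21 a negative fitted difference, with a median of −0.23 against −0.03 over all genes. The share of negative differences over all genes was not computed, so nothing is read from this split. The part of the choice of genes in it was not tested. The filter on low counts kept out 8 of the 15 genes lower in female glands, 2 of the 6 higher ones and 1 of the other 21.

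Leaving out either eye library changed that result for 5 genes. Without female eyes, CG32302 (log2 −5.39), CG18179 (−3.69), CG7953 (−3.64), CG10912 (−3.81) and CG6277 (−3.66) were called lower in females by edgeR, among 15 calls in 1724 genes (0.87%). Without male eyes the same 5 genes were called, among 15 calls in 1818 genes (0.825%). Each had under 20 counts in female glands and so met the rule through male glands. The choice of these genes therefore depended on the gland values behind the calls. These fits also held 1 eye library and had fewer residual degrees of freedom than the 2 of the full fit. For these reasons nothing is read from the 5 calls. None of the 42 genes was called without a gland library, without a head library or with no filter on low counts. In the fit to all 6 libraries CG18179 and CG7953 had adjusted p of 0.99 and 0.987, and the other 3 genes did not pass the filter. All 5 had at most 1.0 count in a head library, so without an eye library their sex term rests almost wholly on the gland libraries, with the spread taken over from other genes.

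Transcript shares were compared in the 12 genes with 2 or more transcripts of 20 or more gland counts. CG34166 was split between transcripts RD and RA, with RD at 58.5% of the gene's counts in female glands (Wilson 95% interval 56.7 to 60.4) and 56.4% in male glands (53.9 to 58.8). CG12715 was divided evenly, with RA at 50.2% in female glands (47 to 53.4) and 49.6% in male glands (44.8 to 54.4). These transcripts encode proteins of the same length within each gene, and the intervals of the female and male shares overlap. A minor transcript of CG34166, RB, had no count in female glands (0%, interval 0 to 0.143) and 0.658% in male glands (0.383 to 1.22).

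CG9449 and CG31698 had larger shares whose intervals did not overlap, and in the other 9 genes all intervals overlapped. The 3 genes of 12 with such a transcript stand beside 42% of all 162 genes compared in the same way. For CG9449, transcript RK held 96.3% in female glands (93.9 to 97.7) and 66.9% in male glands (58.9 to 75), and RF held 0% and 33.1%. RK encodes 391 codons and RF 404. For CG31698, RB held 74.8% in female glands (63.6 to 83.8) and 94.3% in male glands (85.6 to 97.7), with 151 codons in both RA and RB. The shares rest on the authors' division of reads among transcripts that share exons, and only 13 of the 84 gland values of the 42 genes were whole numbers (within 0.0005).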

How the data were processed

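Estimated counts and TPM per transcript for 8 libraries, and whole-number read counts per library, were deposited by the authors. The TPM values, per the deposited table, are corrected for transcript length. The build was BDGP6, and the tools were minimap2, Salmon and edgeR, per the submitters' processing notes, which state neither version nor role. Libraries held 262332 to 334257 reads, of which 90780 to 156627 passed the authors' filter. Reads were not re-aligned, and genes with shared exons (7 of the 42) or near-identical copies have uncertain counts.

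Gene and transcript models of BDGP6, release 115, matched 31048 of 31089 transcripts (the other 41 held 0.0938% to 0.535% of counts and were left out), and values were summed per gene with pandas 2.3.3. Groups came from tissue and sex in the labels. Ratios of CPM carry exact binomial (Clopper-Pearson) 95% intervals (scipy 1.17.1) on rounded counts, transcript shares Wilson intervals. Such intervals and the floor of 3 counts cover counting error only, since reads copied by PCR and carrying no molecular identifier are not independent molecules. The sex term was tested with edgeR 4.0.16 (tissue and sex, TMM, filterByExpr with a minimum count of 10, rounded counts). In data simulated for that comparison with 1389 genes, it called 79.4% of genes changed 4-fold, 99% of those changed 8-fold and 0.0836% of unchanged genes. No such rate was computed for genes counted almost wholly in glands. The simulated rates therefore do not tell how often a change in the unnamed genes would have been called. DESeq2 1.42.0, other scalings, filters and omitted libraries were alternatives.

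The members and lists were chosen with earlier results of these data known. Genes were named by mean gland TPM (the 12 highest), the widest sex ratios whose interval excludes 1 (up to 5 each way), distance to neighbours, closeness to the 80% limit, transcripts with 20 or more counts, and most counts outside glands (3 genes); the other genes 2-fold or more apart in the glands, the smallest and the longest gene, genes at the ends of a range, CG30371, CG30031, CG7290, their neighbours and the trypsin genes were added after their values were seen. Protein and promoter sequences were not used here.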

Additional observations from a re-analysis of the deposited data

Results flagged for a closer look

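Among genes with 10 or more rounded counts over both eye libraries, 4 had intervals that put the ratio on opposite sides of 1 in eyes and glands. In these, the ratio of females to males ran one way in eyes and the other way in salivary glands. CG34166 and CG13748 were compared too and did not show this. No share over all genes was computed, so nothing is read from the count of 4. The difference between the tissues was not tested, since each group is 1 library. CG18179, CG7953 and CG8997 each had under 20 counts in female glands and so met the rule through male glands. The female eye library also took 0.471% of its counts from the gut list and 8.24% from the ovary list. CG18179 had 37.0 counts in female eyes and 2.0 in male eyes (ratio 16.2, interval 4.18 to 139), against a ratio of 0.0707 in glands. CG7953 had 10.0 counts in female eyes and none in male eyes (at least 2.92-fold higher against 3 counts, counting interval from 1.96 up), with a gland ratio of 0.0721. CG8997, its neighbour, had 10.4 counts in female eyes and none in male eyes (at least 3.02-fold higher, counting interval from 1.96 up), with a gland ratio of 0.154. CG9449 went the opposite way, with 13.2 counts in female eyes and 25.3 in male eyes (0.457, interval 0.214 to 0.925) and a gland ratio of 2.78. Under the limit of 10 eye counts, CG6277 had 9.0 counts in female eyes and 0.0 in male eyes, CG10912 had 5.6 and 1.0, and CG12974 had 4.0 and 2.0, while all 3 were lower in female glands.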

How the results depend on the processing

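The number of genes that met the rule was 25 at a gland share of 95%, 67 with a minimum of 10 gland counts, 27 with 50 and 21 with 100, and ran from 18 to 48 with 1 library left out (18 without male glands, 26 without female glands). With 50 counts or more over both glands, 3 genes were 2-fold or more higher in female glands. Without genes that have a count in female eyes, an alternative chosen after seeing the data, 3 were higher and 8 lower. Among genes that met the rule with either gland library alone, also chosen after seeing the data, 2 were higher and 2 lower. The median log2 ratio of the 42 genes was −0.37 on gene TPM. Over all 831 genes the median moved from −0.11 with library totals to −0.10 with TMM and −0.04 with DESeq2 size factors, and the counts of 6 higher and 15 lower genes were the same under each. For the sex term, 9 genes were called without a filter on low counts, 1 by DESeq2, and 6 to 33 with 1 library left out (33 without female glands, 31 without male glands). Of the 42 genes, 0 to 5 were called with 1 library left out. The gland ratios of 19 named genes stayed within their intervals on TMM scaling and on TPM (38 values). The sex term compares females and males within tissue, and the labels give no replicate numbers for a further block. Depth limits the 15 genes with under 50 gland counts most.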
